A study of Mus musculus with 27 samples.

Results

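Goblet cells make the mucus of the intestine, and this account covers 10 of their genes in the distal ileum of mice given TCDD, the dioxin 2,3,7,8-tetrachlorodibenzo-*p*-dioxin. The genes were *Muc2*, *Tff3*, *Fcgbp*, *Zg16*, *Clca1*, *Agr2*, *Spdef*, *Spink4*, *Retnlb* and *Muc13*. They were chosen by name as mucins, secreted goblet cell products and the regulator *Spdef*, and each was found by its Ensembl identifier among the 46078 genes of the count tables. All 10 passed the filter on low counts that left 16741 genes for testing.

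The mice were male C57BL/6 mice, 3 per group, sampled on postnatal day 56. One group received sesame oil vehicle by gavage, and the 8 others received TCDD at 0.01 or 0.03, 0.1 or 0.3, 1 or 3, and 10 or 30 µg/kg. Each dose was repeated every 4 d over 28 d. This dioxin is a long-lived ligand of the aryl hydrocarbon receptor (AhR), a transcription factor that induces enzymes such as *Cyp1a1*. RNA came from epithelium scraped off the distal ileum, so every cell type of the scraping was measured together and fewer cells of a type cannot be told apart from less RNA per cell. The mice were co-housed, the cage of each was not used here, and an effect of cage cannot be told apart from that of dose.

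Goblet cells store mucin in granules and release it as the gel that covers the epithelium. The gel is built on the polymeric mucin MUC2, and other secreted proteins bind to it, cross-link it or process it. A second kind of mucin stays anchored in the apical membrane of enterocytes and goblet cells and forms the glycocalyx, and MUC13 belongs to this kind. *Spdef* encodes a transcription factor of goblet cell maturation, and *Agr2* a protein of the endoplasmic reticulum that MUC2 folding depends on.

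RefSeq promoters (GRCm38.p6), each a window of 300 bases that ends just past a start site, were at hand for 5 of the 10 genes. They are shown for the secreted mucin, its partner *Fcgbp*, the membrane mucin *Muc13* and the regulator *Spdef*, because the first pair and *Muc13* moved in opposite directions below. Capitals mark GCGTG, the core of the element that AhR binds, searched on both strands. The *Muc2* window is chr7:141690090-141690389 (+ strand), that of *Fcgbp* chr7:28070986-28071285 (+ strand), that of *Muc13* chr16:33793787-33794086 (+ strand) and that of *Spdef* chr17:27728902-27729201 (- strand).
Muc2: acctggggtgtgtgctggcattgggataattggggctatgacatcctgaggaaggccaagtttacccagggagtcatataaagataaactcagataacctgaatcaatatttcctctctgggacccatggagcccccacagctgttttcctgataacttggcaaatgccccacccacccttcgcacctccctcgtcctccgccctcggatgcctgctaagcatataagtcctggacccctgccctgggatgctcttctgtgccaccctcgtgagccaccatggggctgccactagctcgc
Fcgbp: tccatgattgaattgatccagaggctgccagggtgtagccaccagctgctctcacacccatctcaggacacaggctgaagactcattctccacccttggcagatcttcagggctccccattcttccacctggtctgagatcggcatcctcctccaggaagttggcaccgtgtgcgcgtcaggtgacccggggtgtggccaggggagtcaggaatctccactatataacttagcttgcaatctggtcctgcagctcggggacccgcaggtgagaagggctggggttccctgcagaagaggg
Muc13: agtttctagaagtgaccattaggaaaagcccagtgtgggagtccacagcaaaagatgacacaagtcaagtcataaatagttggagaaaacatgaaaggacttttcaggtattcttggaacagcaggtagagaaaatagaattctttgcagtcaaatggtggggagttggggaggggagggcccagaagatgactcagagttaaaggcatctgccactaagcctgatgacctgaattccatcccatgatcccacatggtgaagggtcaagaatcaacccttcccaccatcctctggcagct
Spdef: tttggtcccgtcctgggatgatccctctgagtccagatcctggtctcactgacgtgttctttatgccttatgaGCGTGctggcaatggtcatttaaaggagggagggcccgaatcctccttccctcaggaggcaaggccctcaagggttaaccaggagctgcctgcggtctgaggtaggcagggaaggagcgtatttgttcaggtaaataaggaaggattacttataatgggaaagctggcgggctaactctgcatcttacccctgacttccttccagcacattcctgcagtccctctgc
Only the *Spdef* window held the core, at -177 from the start site. The windows of *Agr2* and of a second *Muc13* start held none either, against 32.4% of 32851 RefSeq promoter windows of the same length. The E-box CACGTG, which clock proteins bind, was in 0 of these windows and in 7.15% of all. Such matches describe the letters of the window and not binding.

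Gene counts ranged from 12.26 to 17.14 M per mouse, and no pair of mice of a group agreed within sampling noise. The AhR target *Cyp1a1* was at 0.117 ± 0.107 CPM (counts per 1000000 counts) in vehicle mice but 1741 ± 621 CPM with 30 µg/kg (SD, n = 3). Ileal enterocyte markers were present in vehicle mice, the bile acid binding protein gene *Fabp6* at 1696 ± 179 CPM and the bile acid transporter gene *Slc10a2* at 359 ± 39.1 CPM. The caecum and colon markers *Aqp8* and *Hoxb13* were at 0 CPM in vehicle mice and *Car1* at 0.141 ± 0.069 CPM. The proximal small intestine markers *Lct*, *Fabp1*, *Apoa4* and *Gata4* summed to 141 to 357 CPM in vehicle mice and 139.7 to 661 CPM with 30 µg/kg. By the rule given below, 1 of the 4 was called higher at 10 and 1 at 30 µg/kg (1.76% and 5.42% of all genes). Their median log2 fold change was 0.18 at 10 µg/kg and 1.04 at 30 µg/kg. A difference in the region scraped was not tested. Library indexes occurred once in 16 mice, from vehicle to 0.3 µg/kg plus replicate 1 at 1 µg/kg, and again in the other 11, so the use of an index cannot be told apart from dose outside the 1 µg/kg group. A clock score was the mean z-score of log2 CPM of 11 clock genes, with the sign reversed for *Arntl* and *Npas2*. The score was -1.2 to -0.84 with vehicle but 0.95 to 1.43 with 30 µg/kg. It was 0.68 in replicate 3 at 0.01 µg/kg, against -1.2 to -0.31 in the 14 other mice from vehicle to 0.3 µg/kg. Index use and clock score thus moved with dose, and their part in the results below was not tested beyond the covariate fits given.

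In vehicle mice the mucus genes spanned a wide range. In TPM, which allow for transcript length and also sum to 1000000, *Muc13* stood at 4149 ± 249.9, *Fcgbp* at 3514 ± 387, *Muc2* at 3482 ± 244 and *Tff3* at 3108 ± 213 (SD, n = 3). The range of each of these 4 over the vehicle mice overlapped with that of the next in this order. So did the ranges of *Zg16* (2400 ± 246 TPM) and *Clca1* (2075 ± 336 TPM). Within each vehicle mouse, however, *Muc2* was above *Tff3* and *Zg16* above *Clca1*. *Spink4* followed at 625 ± 102 TPM and *Agr2* at 536 ± 27.5 TPM, again with overlap. The regulator *Spdef* was far lower, at 36.4 ± 5.12 TPM, and *Retnlb* lowest at 6.01 ± 5.14 TPM. By counts alone, without regard to length, *Fcgbp* ranked 4, *Muc2* 7 and *Muc13* 16 among all genes. The 10 genes took 2.81% ± 0.14 of all gene counts in vehicle mice and 3.23% ± 0.37 at 30 µg/kg, with 70.2% and 76.6% of that share in *Fcgbp* and *Muc2*.

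Each dose was compared with vehicle by edgeR's quasi-likelihood test. A gene was called differentially expressed at a Benjamini-Hochberg adjusted p of at most 0.05 over all tested genes and a fold change of at least 1.5. Rose and fell are used here for an adjusted p of at most 0.05 at any fold. No mucus gene was called from 0.01 to 3 µg/kg, where 0% of all genes were called up to 0.3 µg/kg, 0.591% at 1 µg/kg and 1.11% at 3 µg/kg. DESeq2 called 0 at these doses as well. At an unadjusted p under 0.05 in edgeR, 0 of the 10 genes passed at 0.01, 0.03 and 0.1 µg/kg (4.18%, 3.53% and 6.19% of all genes), 1 at 0.3 µg/kg (7.45%), 2 at 1 µg/kg (14.1%) and 6 at 3 µg/kg (13.7%).

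At 10 µg/kg 1 of the 10 was called, *Muc13*, which was lower, against 2.53% of all genes in either direction and 0.771% lower. At 30 µg/kg 3 were called, against 9.40% of all genes. *Zg16* was higher (5.42% of all genes higher), and *Muc13* and *Retnlb* were lower (3.98% lower). By the adjusted p alone, 4 genes rose and 1 fell at 10 µg/kg (2.46% and 1.34% of all genes), and 5 rose and 2 fell at 30 µg/kg (9.29% and 8.49%). The 5 genes past the adjusted p at 10 µg/kg became 0 without vehicle replicate 1 or without replicates 1 or 3 at that dose, 1 without vehicle replicate 3 and 3 without vehicle replicate 2, and a fit of only the 6 mice compared left 2 at each of the upper doses. The median log2 fold change of the 10 was 0.36 at 10 µg/kg and 0.33 at 30 µg/kg, beside 0.00 and 0.02 over all genes.

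**Figure D1:**
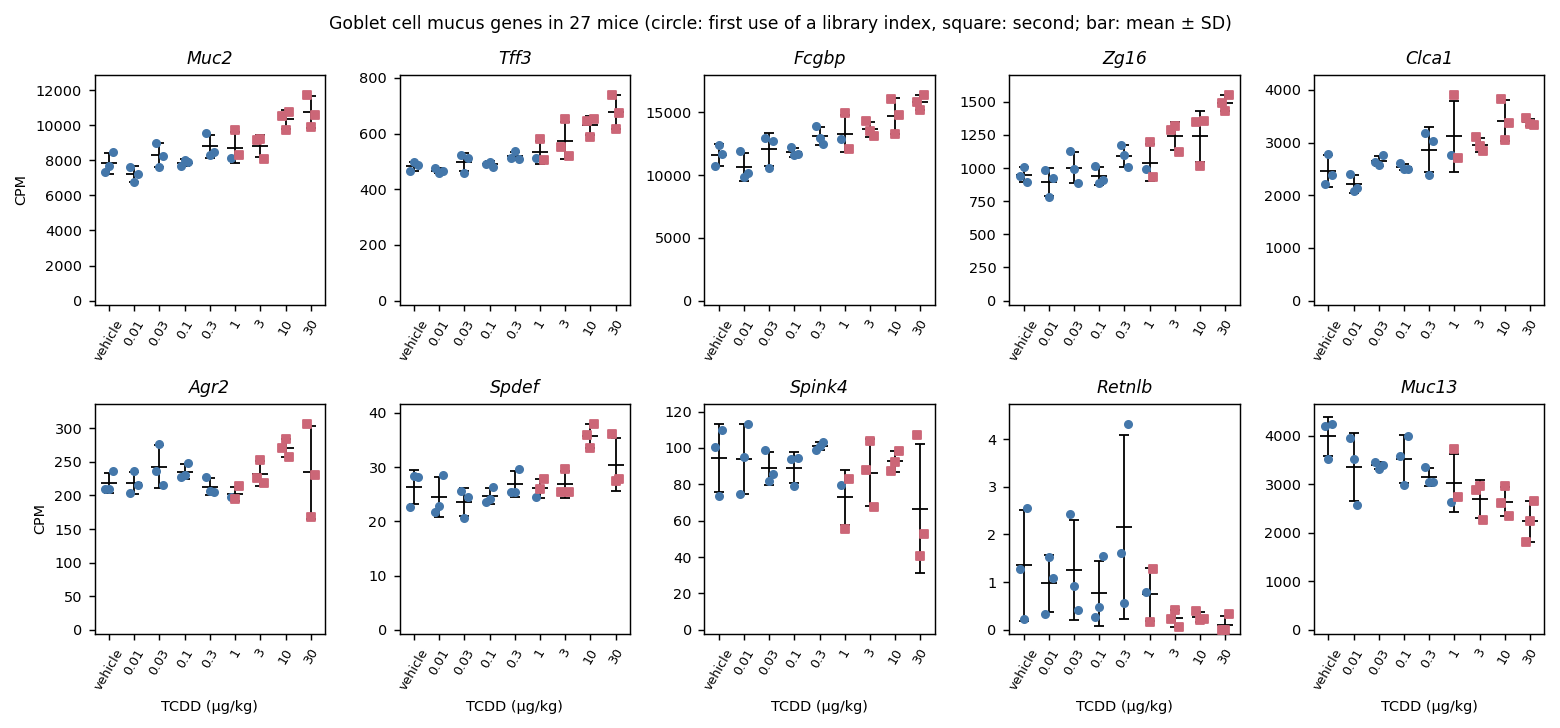
CPM of each of the 10 goblet cell mucus genes (y axis, linear, from 0) by TCDD dose in µg/kg (x axis); each point is a mouse, circles for the first and squares for the second use of a library index, with the group mean ± SD in black. At 30 µg/kg *Muc2*, *Tff3*, *Fcgbp*, *Zg16* and *Clca1* lay above all vehicle mice and *Muc13* below them, while *Agr2* and *Spink4* scattered.

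*Muc2* (ENSMUSG00000025515, chromosome 7, 141690340 to 141754693, + strand of GRCm38) encodes the gel-forming mucin. In vehicle mice it was at 7313, 7683 and 8479 CPM. At 3 µg/kg it was at 9181, 9186 and 8091 CPM, at 10 µg/kg at 10510, 9734 and 10745 CPM, and at 30 µg/kg at 11715, 9899 and 10587 CPM. All 6 mice at the upper 2 doses were above every vehicle mouse, while the mice at 3 µg/kg overlapped with vehicle. *Muc2* rose 1.32-fold at 10 µg/kg (log2 0.40, SE 0.10, adjusted p = 0.0288) and 1.37-fold at 30 µg/kg (log2 0.46, SE 0.10, adjusted p = 0.00379), below the limit of 1.5. From 0.01 to 1 µg/kg group means lay between 7204 and 8787 CPM, around the vehicle mean of 7825 ± 596 CPM.

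*Fcgbp* (ENSMUSG00000047730, chromosome 7, 28071236 to 28120862, + strand) encodes a large protein of the mucus gel that binds MUC2. It was at 10706, 12433 and 11683 CPM in vehicle mice, at 16048, 13235 and 14811 CPM at 10 µg/kg and at 15807, 15218 and 16372 CPM at 30 µg/kg. Every mouse at these doses exceeded the vehicle mice. *Fcgbp* rose 1.36-fold at 30 µg/kg (log2 0.44, SE 0.11, adjusted p = 0.00761), and its value at 10 µg/kg was 1.27-fold (adjusted p = 0.0911). Of its stretches of 50 bases, 6.42% also occur in transcripts of *9530053A07Rik* or *B230219D22Rik*, so reads there could have been split or left out. The ratio of *Muc2* to *Fcgbp* CPM was 0.676 ± 0.0543 in vehicle mice and 0.679 ± 0.0535 at 30 µg/kg, and its group means stayed between 0.647 and 0.705 at all doses.

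*Clca1* (ENSMUSG00000028255, chromosome 3, 145003817 to 145032776, - strand) encodes a secreted metalloprotease of mucus. It was at 2212, 2791 and 2384 CPM in vehicle mice, at 3835, 3052 and 3366 CPM at 10 µg/kg and at 3465, 3356 and 3333 CPM at 30 µg/kg, with no overlap at either dose. At 1 µg/kg a single mouse of the 3 reached 3900 CPM, above every mouse at 30 µg/kg. *Clca1* rose 1.39-fold at 10 µg/kg (adjusted p = 0.0372) and 1.37-fold at 30 µg/kg (log2 0.46, SE 0.13, adjusted p = 0.0154). At 30 µg/kg the adjusted p was 0.0801 without vehicle replicate 1, 0.0671 without vehicle replicate 3 and 0.0549 without replicate 2 at that dose.

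*Zg16* (ENSMUSG00000049350, chromosome 7, 127050156 to 127087328, - strand) encodes a lectin of the mucus that binds Gram-positive bacteria. It was at 939, 1010 and 898 CPM in vehicle mice. At 3 µg/kg the mice had 1284, 1314 and 1118 CPM, those at 10 µg/kg had 1349, 1015 and 1352 CPM, and those at 30 µg/kg had 1489, 1428 and 1550 CPM. Replicate 2 at 10 µg/kg was barely above the highest vehicle mouse, and the 3 mice at 30 µg/kg stood above all other mice in the study. *Zg16* rose 1.57-fold at 30 µg/kg (log2 0.65, SE 0.12, adjusted p = 0.000738), the one call among the genes that rose. The comparison at 3 µg/kg gave 1.30-fold (adjusted p = 0.118) and that at 10 µg/kg 1.31-fold (adjusted p = 0.0775). Scaled by library size only, the log2 value at 30 µg/kg was 0.52 (adjusted p = 0.00158), under the limit of 1.5-fold. The gene *Gm22747* overlaps it on the opposite strand, and whether counting used strand was not stated.

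*Tff3* (ENSMUSG00000024029, chromosome 17, 31125306 to 31129646, - strand) encodes trefoil factor 3, a small peptide secreted with MUC2 that serves epithelial repair. It was at 465, 496 and 486 CPM in vehicle mice, at 552, 650.5 and 521 CPM at 3 µg/kg, at 646, 589 and 653 CPM at 10 µg/kg and at 738, 618 and 674 CPM at 30 µg/kg. The mice at 0.3 µg/kg (512, 536 and 509 CPM) and at 1 µg/kg (512, 581 and 504 CPM) were also above the highest vehicle mouse, as was every mouse from 3 µg/kg upward. *Tff3* rose 1.30-fold at 10 µg/kg (log2 0.38, SE 0.09, adjusted p = 0.0122) and 1.40-fold at 30 µg/kg (log2 0.49, SE 0.09, adjusted p = 0.000452). The value at 3 µg/kg was 1.19-fold (adjusted p = 0.154). The change at 30 µg/kg was close to that of *Muc2* (log2 0.46, SE 0.10).

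*Spdef* (ENSMUSG00000024215, chromosome 17, 27714352 to 27728955, - strand) was at 22.7, 28.3 and 28.1 CPM in vehicle mice. At 10 µg/kg it was at 36, 33.5 and 37.9 CPM, above every mouse of the other groups except replicate 1 at 30 µg/kg. The mice at 30 µg/kg were at 36.1, 27.5 and 27.8 CPM, of which replicates 2 and 3 were within the vehicle range. *Spdef* rose 1.36-fold at 10 µg/kg (log2 0.44, SE 0.12, adjusted p = 0.0426) and gave 1.16-fold at 30 µg/kg (adjusted p = 0.251). From 0.01 to 3 µg/kg its log2 fold changes lay between -0.16 and 0.02.

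*Agr2* (ENSMUSG00000020581, chromosome 12, 35992907 to 36004087, + strand) was at 210.0, 209 and 236 CPM in vehicle mice and at 271, 284 and 257 CPM at 10 µg/kg, without overlap (log2 0.31, SE 0.14, adjusted p = 0.231). At 30 µg/kg it was at 306, 168 and 230.2 CPM. Replicate 1 was the highest and replicate 2 the lowest of all 27 mice, and the log2 fold change was 0.10 (adjusted p = 0.646). *Spink4* (ENSMUSG00000028415, chromosome 4, 40920052 to 40931395, + strand), a secreted protein of the Kazal serine protease inhibitor family, was likewise spread at 30 µg/kg, at 107, 40.5 and 52.4 CPM against 100.5, 73.4 and 109.7 CPM in vehicle mice. Replicates 2 and 3 were below all vehicle mice and replicate 1 was among them, and the log2 fold change was -0.50 (SE 0.24, adjusted p = 0.156). Without replicate 1 at 30 µg/kg it was -1.03 (adjusted p = 0.000546), so this one library decides whether *Spink4* was called.

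*Retnlb* (ENSMUSG00000022650, chromosome 16, 48816856 to 48818892, + strand) encodes a secreted antibacterial protein of the resistin family, best known from colonic goblet cells. It was near the limit of detection, with 18, 3 and 37 counts in vehicle mice (1.27, 0.22 and 2.56 CPM). Counts were 3, 6 and 1 at 3 µg/kg, 5, 3 and 3 at 10 µg/kg and 0, 0 and 4 at 30 µg/kg, where a count of 0 allows up to 3 counts, or 0.215 CPM in replicate 1. Vehicle replicate 2 was inside the range of the 30 µg/kg mice. From 0.01 to 1 µg/kg counts ranged from 2 to 68. *Retnlb* fell at 30 µg/kg with a fitted log2 value of -3.61 (SE 1.19, adjusted p = 0.0372), whose size depends on a handful of reads. The call was lost in 4 of the 6 fits that left out a mouse of this comparison (without vehicle replicates 1 or 3, or replicates 1 or 2 at 30 µg/kg), with log2 values from -7.29 to -2.76 over the 6 and adjusted p up to 0.201.

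*Muc13* (ENSMUSG00000022824, chromosome 16, 33794037 to 33819934, + strand), the membrane mucin, moved the other way. It was at 4190, 3527 and 4234 CPM in vehicle mice, at 2879, 2972 and 2255 CPM at 3 µg/kg, at 2621, 2957 and 2345 CPM at 10 µg/kg and at 1807, 2234 and 2656 CPM at 30 µg/kg. All 9 mice from 3 µg/kg upward were below every vehicle mouse. So were the 3 mice at 0.03 µg/kg (3463, 3304 and 3389 CPM) and the 3 at 0.3 µg/kg (3359, 3043 and 3041 CPM), while the groups at 0.01, 0.1 and 1 µg/kg, spanning 2574 to 3986 CPM, overlapped with vehicle. *Muc13* fell 1.51-fold at 10 µg/kg (log2 -0.59, SE 0.16, adjusted p = 0.0419) and 1.78-fold at 30 µg/kg (log2 -0.84, SE 0.16, adjusted p = 0.00119). The value at 3 µg/kg was log2 -0.56 (adjusted p = 0.0901). The call at 10 µg/kg was lost without vehicle replicates 1 or 3 and without replicates 1 or 3 at that dose (log2 -0.68 to -0.52 over the 6 fits), and the call at 30 µg/kg held without any of the 6 mice (log2 -1.0 to -0.70). *Gm15657* overlaps *Muc13* on the opposite strand.

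The ratio of *Muc2* to *Muc13* CPM within a mouse joined both movements. It was 1.75, 2.18 and 2.00 in vehicle mice, 3.19, 3.09 and 3.59 at 3 µg/kg, 4.01, 3.29 and 4.58 at 10 µg/kg and 6.48, 4.43 and 3.99 at 30 µg/kg. Every mouse from 0.3 µg/kg upward had a higher ratio than any vehicle mouse, with 2.85, 2.73 and 2.79 at 0.3 µg/kg and 3.08, 2.62 and 3.04 at 1 µg/kg. The mice at 0.03 µg/kg (2.60, 2.31 and 2.43) did so too, while those at 0.01 and 0.1 µg/kg overlapped with vehicle. Group means were 1.98 ± 0.218 with vehicle and 4.97 ± 1.33 at 30 µg/kg (SD, n = 3). The ratio combines changes already given for each gene and was not tested. Neither gene was called below 10 µg/kg.

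**Figure D2:**
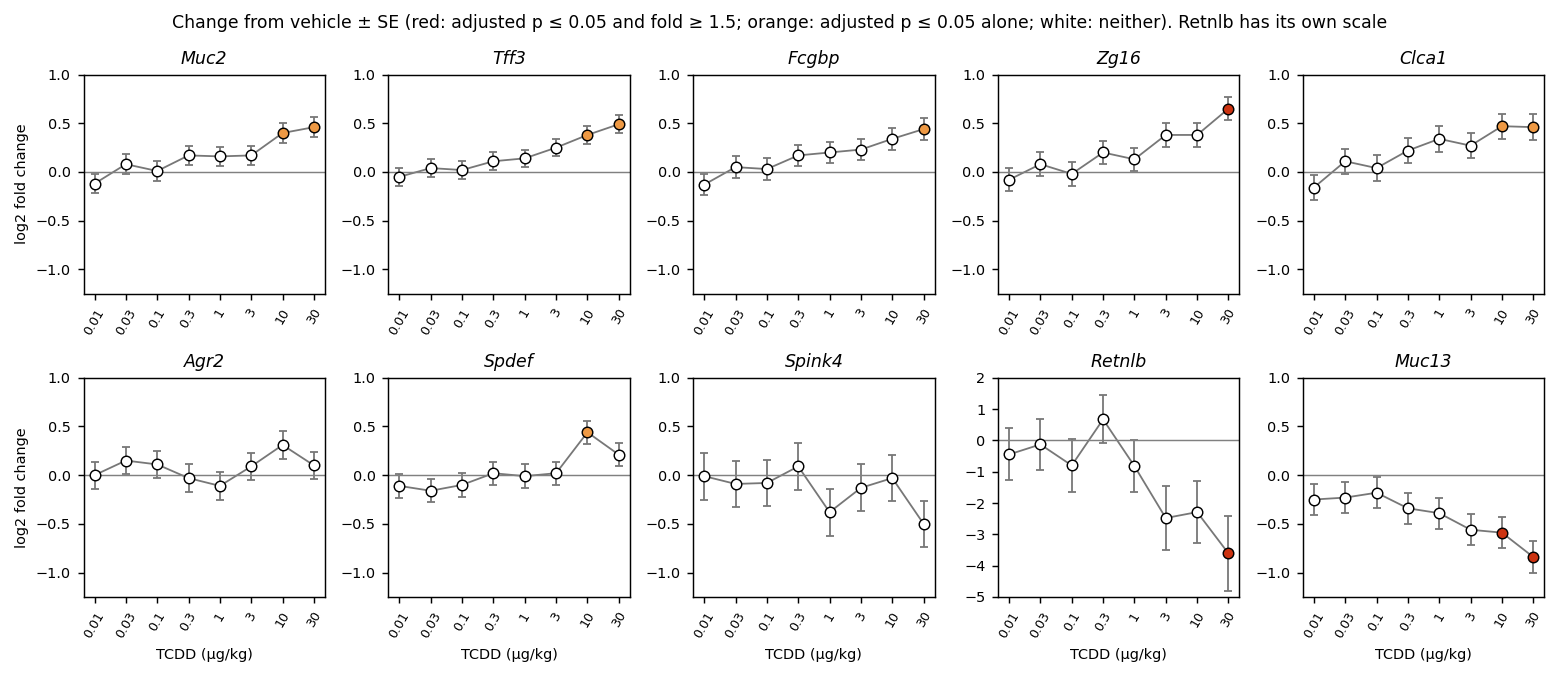
Log2 fold change from vehicle (y axis) of each mucus gene at the 8 TCDD doses in µg/kg (x axis), points with SE bars from the edgeR fit, 3 mice per group; red marks adjusted p of at most 0.05 with at least 1.5-fold, orange the adjusted p alone and white neither, and *Retnlb* has its own y scale. *Muc2*, *Tff3*, *Fcgbp*, *Zg16* and *Clca1* reached log2 0.44 to 0.65 at 30 µg/kg and *Muc13* -0.84.

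At 10 µg/kg 7 of the 10 genes had no overlap with vehicle on the higher side and 1, *Muc13*, on the lower side, against 11.5% and 11.8% of all genes. At 30 µg/kg 5 genes were entirely above and 1 entirely below (13.7% and 13.3% of all genes). Over all 9 groups, 7 of the 10 genes differed by the quasi-likelihood F test (9.53% of all genes), and *Agr2* (adjusted p = 0.422), *Spink4* (0.601) and *Retnlb* (0.0889) did not pass. In a fit of the slope against the rank of the dose, 8 of the 10 passed (26.2% of all genes). The slope was 0.063 log2 units per dose step for *Tff3* (SE 0.008, adjusted p = 1.17e-06), 0.080 for *Zg16* (SE 0.011, adjusted p = 8.15e-06) and -0.087 for *Muc13* (SE 0.014, adjusted p = 4.68e-05).

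The slopes within each use of the library indexes rest on part of the dose range. In the 16 mice of the first use (0.149% of all genes passed) 0 of the 10 genes passed, with slopes of 0.025 for *Tff3*, 0.037 for *Muc2* and -0.077 for *Muc13* (unadjusted p = 0.0548, 0.0773 and 0.00975, edgeR). In the 11 mice of the second use (1.43% of all genes passed) 0 passed as well, with slopes of 0.100, 0.094 and -0.169 (unadjusted p = 0.021, 0.0669 and 0.0141, edgeR). In the first use *Clca1* (0.057), *Fcgbp* (0.046) and *Zg16* (0.038) kept the sign of their slopes over all mice (unadjusted p = 0.0219, 0.0368 and 0.0859, edgeR). The slopes of the remaining genes there were near 0 or opposite to those over all mice. They were 0.076 for *Retnlb* (-0.305 over all mice), -0.012 for *Agr2* (0.017), 0.001 for *Spdef* (0.050) and -0.008 for *Spink4* (-0.039). Among doses that share an index use, 0 of the 10 genes were called between 10 and 3 µg/kg (0.0418% of all genes) and 0 between 30 and 3 µg/kg (0.890%). At an unadjusted p under 0.05 edgeR gave 2 and 3 of the 10, against 6.51% and 13.4% of all genes. With index use as a covariate, which rests on the 1 µg/kg group for its estimate, *Muc13* was still called at 30 µg/kg (log2 -1.12, adjusted p = 0.0418), while *Zg16* was at 0.55 (adjusted p = 0.187), *Tff3* at 0.40 (0.173) and *Muc2* at 0.31 (0.426).

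*Muc13* also varied with the clock score. Over 27 mice, after each dose group's mean was removed, its log2 CPM had a Pearson's r of -0.71 with the score, and -0.65 over 26 mice without replicate 3 at 0.01 µg/kg. The other 9 genes had r between -0.30 and 0.36 over the 27 mice, and between -0.53 (*Muc2*) and -0.07 (*Spdef*) over the 26, with -0.45 for *Agr2* and -0.37 for *Zg16*. The mouse with the displaced score, at 0.01 µg/kg, had 2574 CPM of *Muc13*, below the 2992 to 4234 CPM of the 14 other mice from vehicle to 0.3 µg/kg. Its *Muc2* (7234 CPM), *Tff3* (466 CPM), *Zg16* (924 CPM) and *Clca1* (2145 CPM) lay inside the ranges of those 14, and so did its *Fcgbp*, *Agr2*, *Spdef* and *Retnlb*, whereas its *Spink4* (113 CPM) was above all 14. With the clock score as a covariate, *Muc13* was at log2 0.26 at 10 µg/kg (adjusted p = 0.992) and 0.08 at 30 µg/kg (adjusted p = 0.937), no longer lower. In that fit the 5 genes that rose at 30 µg/kg kept positive values, 0.55 for *Tff3* to 0.75 for *Zg16*, with adjusted p from 0.379 to 0.451. Score and dose rise together over the groups, so their parts cannot be told apart.

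**Figure D3:**
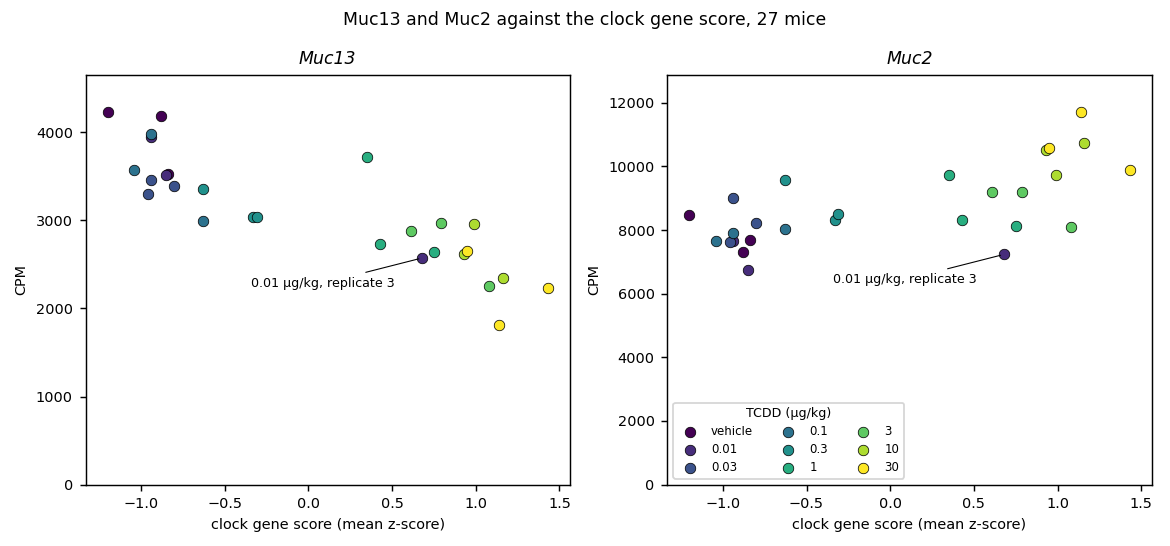
CPM of *Muc13* (left) and *Muc2* (right) on linear y axes against the clock gene score (x axis). The score is the mean z-score of 11 clock genes, with the sign reversed for *Arntl* and *Npas2*. Each point is 1 of 27 mice, coloured by dose in µg/kg. The labelled mouse at 0.01 µg/kg, with a score of 0.68, had 2574 CPM of *Muc13* and 7234 CPM of *Muc2*.

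Apart from dose, the 10 genes did not vary as 1 block. With group means removed, *Muc2* and *Tff3* (r = 0.72), *Muc2* and *Fcgbp* (0.71), *Fcgbp* and *Clca1* (0.74) and *Fcgbp* and *Zg16* (0.71) varied together over the 27 mice. *Agr2* and *Spink4* formed another pair (r = 0.72). Both were most spread among the 3 mice at 30 µg/kg, with SDs of 69.4 and 35.5 CPM. In the other groups the SDs were at most 31.4 and 19.2 CPM. Their r therefore leans on that group, and it was not computed without it. *Spdef* had r of 0.58 with *Spink4*, 0.54 with *Tff3*, 0.46 with *Muc2*, 0.33 with *Agr2* and 0.13 with *Fcgbp*. *Muc13* had r between -0.41 and 0.32 with the others. These values are descriptions over mice with 1 library each, in which differences in index use, cage and scraping were not removed.

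**Figure D4:**
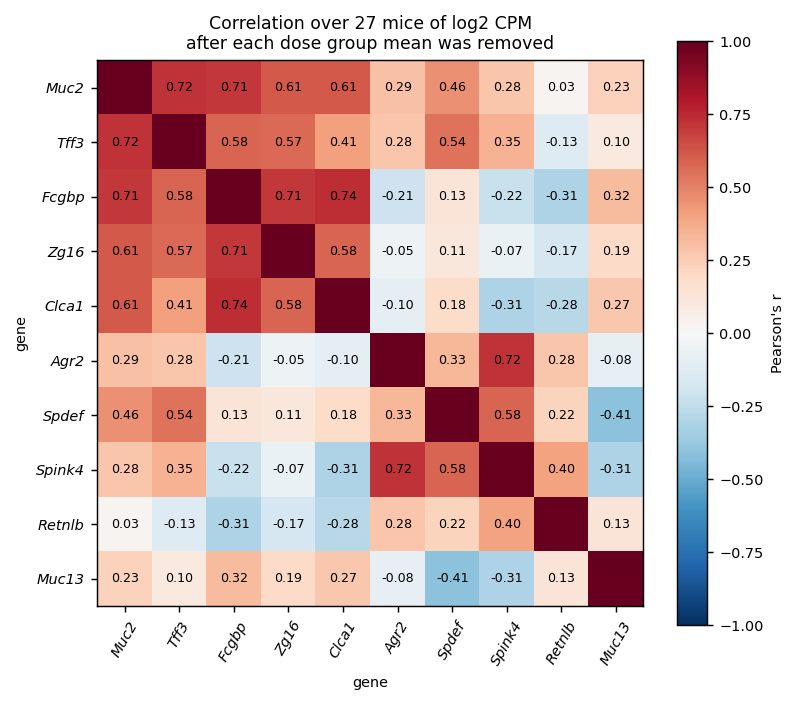
Pearson's r between the mucus genes (both axes) over 27 mice, from log2 CPM after each dose group's mean was removed; red is positive, blue negative. *Muc2*, *Tff3*, *Fcgbp*, *Zg16* and *Clca1* had r of 0.41 to 0.74 with each other, and *Agr2* and *Spink4* 0.72.

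Marker lists of other cells were set beside these pairs. *Agr2*, which other secretory cells also make, had r of -0.82 with the summed enterocyte markers and 0.56 with the Paneth cell markers. *Spink4* had 0.76 with the stem cell markers and 0.58 with the Paneth cell markers. The wide spread of *Agr2* and *Spink4* at 30 µg/kg enters these values too. At 30 µg/kg the summed 4 stem cell markers were 40.1 to 105 CPM against 107 to 163 CPM in vehicle mice. Of the 4, *Lgr5* alone was called, and it was lower (3.98% of all genes lower). The summed 7 Paneth cell markers were 1850 to 3360 CPM against 1656 to 4010 CPM, and 0 of 7 were called (9.40% of all genes). The part of these cells in the values of *Agr2* and *Spink4* was not tested.

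The median log2 fold change of 9 other goblet cell regulators was 0.39 at 30 µg/kg. Of the 9, 0 were called at 10 µg/kg (2.53% of all genes) and 1 rose past 1.5-fold at 30 µg/kg (5.42% of all genes higher). It was *Ern2*, the stress sensor IRE1β of mucus-secreting cells, at 44.5, 45.1 and 46.6 CPM in vehicle mice, compared with 74.6, 64.5 and 68.7 CPM at 30 µg/kg (log2 0.61, SE 0.09, adjusted p = 6.74e-05). *Atoh1*, which commits cells to the secretory lineage, rose by less than the fold limit (log2 0.58, adjusted p = 0.0139), and *Foxa1* was at -0.05 (adjusted p = 0.807).

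Of 14 other goblet cell markers, 1 was called at 1 and at 3 µg/kg, 3 at 10 µg/kg and 5 at 30 µg/kg, all higher, with a median log2 fold change of 0.45 at 30 µg/kg. Their summed level was 627 to 774 CPM with vehicle, 943 to 1080 CPM with 1 µg/kg and 1043 to 1086 CPM with 30 µg/kg. The mouse with the displaced clock score, at 0.01 µg/kg, was at 895 CPM. The other mice from vehicle to 0.3 µg/kg were at 618 to 824 CPM. The part of the clock score in these sums was not tested. The gene called at 1 and 3 µg/kg was *Scin* (log2 1.06, adjusted p = 0.0106, and 0.92, adjusted p = 0.015). *Capn9*, a calpain protease of the gut, was at 19.9, 23.8 and 19.4 CPM in vehicle mice, compared with 41, 45.2 and 42.1 CPM at 30 µg/kg (log2 1.02, SE 0.10, adjusted p = 4.56e-07). The groups were clearly apart. *Bcas1* (log2 0.85, adjusted p = 1.32e-05), *Scin* (0.82, adjusted p = 0.00637), the tryptase gene *Tpsg1* (0.68, adjusted p = 0.00251) and *Rep15* (0.68, adjusted p = 0.00288) completed the 5. *Scin* encodes an actin-severing protein and *Rep15* a partner of a Rab GTPase. *Klk1* (0.21, adjusted p = 0.322) and *Ttc39a* (0.04, adjusted p = 0.849) did not pass. The lists were drawn up with earlier results of these mice known, and their counts are read only beside the shares of all genes called higher, 1.76% at 10 µg/kg and 5.42% at 30 µg/kg.

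Of 18 genes that build or decorate mucin glycans, 17 were tested, and at 30 µg/kg 1 was called higher and 3 lower (5.42% and 3.98% of all genes). *B3gnt7* and *Fut2* were already called lower at 1 µg/kg (log2 -1.83, adjusted p = 0.0155, and -1.80, adjusted p = 0.0247) and at 3 µg/kg (-2.02, adjusted p = 0.00382, and -1.78, adjusted p = 0.0165), and at 10 µg/kg *Gcnt3* was called higher and *B3gnt7* lower. *Gcnt3*, which branches mucin O-glycans, was at 144, 161 and 188 CPM in vehicle mice, compared with 280.1, 322 and 329 CPM at 30 µg/kg (log2 0.92, SE 0.14, adjusted p = 9.32e-05). *B3gnt7*, a glycan-extending N-acetylglucosaminyltransferase, went from 163, 111 and 201 CPM to 38.7, 18.9 and 18.6 CPM (log2 -2.64, SE 0.38, adjusted p = 4.86e-05). *Fut2*, which adds the terminal fucose, went from 40.3, 18.6 and 62.4 CPM to 4.73, 6.03 and 10.7 CPM (log2 -2.51, SE 0.41, adjusted p = 0.000222). *C1galt1*, which makes the core 1 O-glycan, fell by less (log2 -0.63, SE 0.12, adjusted p = 0.000649). In all 4 the groups did not overlap, and enterocytes express several of these enzymes too.

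Of 19 other mucins and relatives of the mucus genes, 10 passed the filter, and 3 were called lower at 30 µg/kg (3.98% of all genes lower). They were the membrane mucin *Muc4* (log2 -0.81, SE 0.26, adjusted p = 0.0299), *Clca3b* (-0.80, SE 0.23, adjusted p = 0.0167) and *Clca3a2* (-0.65, SE 0.22, adjusted p = 0.0447). *Muc4* ranged from 64.5 to 119.7 CPM in vehicle mice and from 34.3 to 76.7 CPM at 30 µg/kg, with overlap. The membrane mucin *Muc3*, an abundant relative, was at 1985 ± 191 CPM in vehicle mice, compared with 2596 ± 887 CPM at 30 µg/kg (log2 0.39, adjusted p = 0.111), and the similar locus *Muc3a* rose by less than the fold limit (0.53, adjusted p = 0.00316). Reads that match both of these may not have been counted to either. *Clca4a* (log2 0.21, adjusted p = 0.825), *Clca4b* (-0.16, adjusted p = 0.774) and *Clca3a1* (-0.50, adjusted p = 0.172) did not pass. The gastric and airway mucins *Muc5ac*, *Muc5b* and *Muc6* and the trefoil factor *Tff2* stayed below 1 CPM in every mouse.

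**Figure D5:**
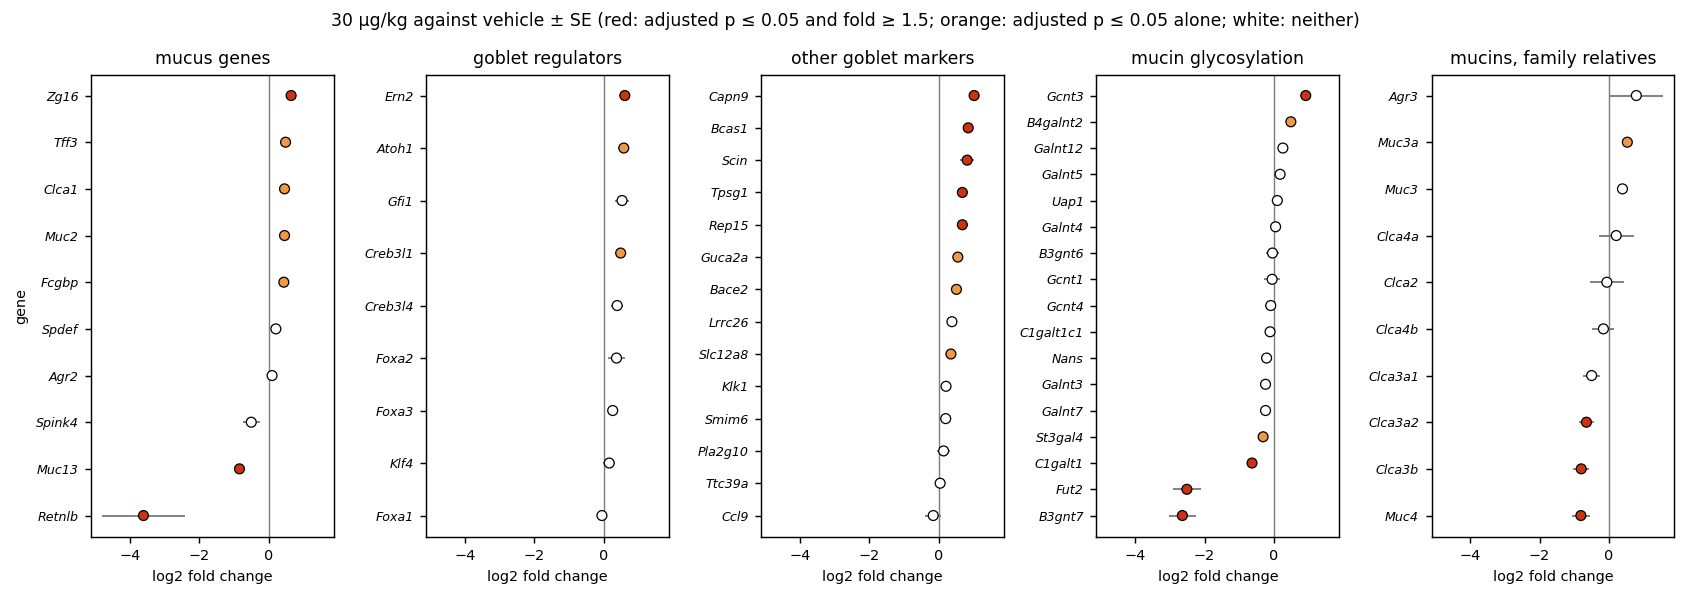
Log2 fold change at 30 µg/kg against vehicle (x axis, points with SE bars, 3 mice per group) of the mucus genes and of each tested gene in 4 related lists (y axis, sorted); red marks adjusted p of at most 0.05 with at least 1.5-fold, orange the adjusted p alone, white neither. *Capn9* reached log2 1.02, while *Fut2* (-2.51) and *B3gnt7* (-2.64) fell most apart from *Retnlb*.

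Markers of other cells moved at the same doses. All 5 tuft cell markers were called higher at 10 µg/kg (summed 66.1 to 156 CPM against 30.0 to 44.5 CPM in vehicle mice), where 1.76% of all genes were called higher, and 1 of 5 at 30 µg/kg (46.9 to 66.7 CPM), where 5.42% were. Of 7 enteroendocrine markers 1, *Chgb*, was called higher at 10 µg/kg (1.76% of all genes). At 30 µg/kg 4 were, *Chga*, *Chgb*, *Neurod1* and *Pyy* (5.42% of all genes). The 7 summed to 212 to 248 CPM there, against 114 to 132 CPM in vehicle mice. The 5 genes of the type 2 response that expands goblet and tuft cells summed to 1.38 to 2.36 CPM at 30 µg/kg. In vehicle mice the sum was 2.42 to 4.40 CPM, and *Il13* was at 0 counts in all 6 mice. Only 1 of the 5 passed the filter on low counts, and it was not called. A sum this low cannot show whether the response changed. Smooth muscle markers summed to 36.2 to 345 CPM at 30 µg/kg, beside 25 to 109.5 CPM in vehicle mice (0 of 6 called, 9.40% of all genes). Of 4 plasma cell markers 3 were tested, and 2, *Jchain* and *Mzb1*, were called lower at 10 µg/kg (log2 -1.22 and -1.32) and at 30 µg/kg (-1.61 and -1.43), where 0.771% and 3.98% of all genes were. Their summed level was 211 to 338 CPM with vehicle, 88.5 to 136 CPM with 10 µg/kg and 42.8 to 111 CPM with 30 µg/kg, and its r with *Muc2* was -0.75 over the 27 mice and -0.18 with group means removed. Of 8 enterocyte markers 2, *Sis* and *Slc10a2*, were called higher and 1, *Fabp6*, lower at 30 µg/kg (5.42% and 3.98% of all genes). The 8 summed to 11427 to 24916 CPM, against 11574 to 14037 CPM in vehicle mice. The part of any of these cells in the mucus gene values was not tested.

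Over the 27 mice, the genes whose log2 CPM followed the mean z-score of the 10 mucus genes most closely were *Klk1* (Pearson's r = 0.902), *Creb3l1* (0.883), *Slc12a8* (0.837), *Atp2a3* (0.829) and *Krt18* (0.827). *Klk1*, *Creb3l1* and *Slc12a8* belonged to the lists of other goblet cell regulators or markers, *Atp2a3* encodes a calcium pump of the endoplasmic reticulum and *Krt18* an epithelial keratin. The r values describe these mice, with dose included.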

How the data were processed

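Ileal epithelial RNA of 27 male C57BL/6 mice was sequenced, and groups were taken from the dose in the sample labels. Per the labels and methods, the authors used FastQC 0.11.3, Trimmomatic 0.33, TopHat2 2.1.0, SAMtools 1.2.0, HTSeq 0.6.1 and DESeq on GRCm38. The deposited values are raw counts per Ensembl gene, 1 table per mouse. Counting options, strand included, were not given in the sources used here. Reads matching several places may be missing from the counts.

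Counts were analysed with edgeR 4.0.16 in R 4.3.3 (filterByExpr, TMM, quasi-likelihood fit of 9 groups, no covariate). filterByExpr used a minimum count of 10 and a minimum total of 15. A call needed a Benjamini-Hochberg adjusted p no higher than 0.05 with a 1.5-fold or larger change; the P1(*t*) criterion of the study could not be recomputed. SE is the log2 fold change divided by the square root of F. CPM used TMM library sizes, log2 CPM a prior count of 2, and TPM exon lengths of GENCODE M21. The p-values rest on counting error and on the spread between mice, which was estimated over all groups in a fit and not only those compared. The procedure was tested on simulated counts.

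The 10 genes were fixed by name; in the related lists, genes called at 10 or 30 µg/kg and relatives above 1 CPM were named, with the 5 closest genes by correlation. *Foxa1*, *Klk1*, *Ttc39a*, *Atoh1* and the cell type examples were named after their values were seen. The genes, lists and clock panel were chosen with earlier results of these data known. Of the 4 caecum and colon markers, 1 is not reported here. Alternatives were DESeq2 1.42.0, 2 other scalings, 2 other filters, no fold minimum, covariates (index use, clock score), fits of 6 mice and leaving out each mouse. Library indexes were read from the names of the deposited files; that their 2 uses were separate pools is an inference.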

Additional observations from a re-analysis of the deposited data

How the results depend on the processing

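No paired analysis was possible because the mouse numbers in the labels are unique and pair no samples across groups. The number of mucus genes called at 30 µg/kg (3) was 7 without a fold minimum, 1 with index use and 0 with the clock score as a covariate, and 2 to 3 when a mouse was left out. At 10 µg/kg (1) it was 5 without a fold minimum, 0 with upper quartile scaling, with at least 10 counts in every mouse and with either covariate, and 0 to 1 when a mouse was left out. At 3 µg/kg it was 1 with library size only. Between 30 and 3 µg/kg it was 0 to 1 when a mouse was left out. By the adjusted p alone, a count chosen after seeing the data, the 5 genes at 10 µg/kg became 0 with either covariate, 2 in a fit of the 6 mice and 0 to 5 without a mouse, and the 7 at 30 µg/kg became 1 with index use, 0 with the clock score, 2 in a fit of the 6 mice and 5 to 7 without a mouse. The 8 slopes became 0 within either index use and 0 with the clock score. Over all genes, the 423 calls at 10 µg/kg became 636 without a fold minimum, 48 with index use, 4 with the clock score and 213 to 452 without a mouse. The 1574 at 30 µg/kg became 2976, 482, 9 and 871 to 2473, and 656 in a fit of the 6 mice. With the clock score the sign turned for *Muc13* (0.26 at 10 µg/kg, 0.08 at 30 µg/kg) and *Spdef* (-0.12 at 30 µg/kg). The sign of *Agr2* at 30 µg/kg turned with library size only (-0.0024) and without replicate 1 at that dose (-0.13; 0.28 at most over the 6 fits). Library size only moved the median of all genes at 30 µg/kg from 0.02 to -0.11. The other fold changes of the mucus genes at 30 µg/kg kept their direction in these fits; those at the other doses, *Muc13* at 10 µg/kg apart, were not compared gene by gene. Leaving out the mouse with the displaced clock score, also chosen after seeing the data, gave 1 and 3 calls at 10 and 30 µg/kg. The causes were not tested. *Retnlb* had 3 to 37 counts per vehicle mouse, so its error holds both counting error and the spread between mice.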

Other observations

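The genes nearest to *Muc2* and to *Muc13* were looked up after their values were seen. Over the 27 mice, with dose included, the log2 CPM of *Muc2* was closest to that of *P2rx4* (Pearson's r = 0.935), which encodes an ATP-gated ion channel, *Myo5c* (0.927), a myosin of secretory granules, *Tff3* (0.923), *Fcgbp* (0.920) and *Ano7* (0.917). That of *Muc13* was closest to *Lrrc1* (0.959), *B4galt1* (0.931), a galactosyltransferase, *Tgm2* (0.922), *Sptlc2* (0.918), a subunit of the first enzyme of sphingolipid synthesis, and *Apaf1* (0.906). No gene stood in both lists.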
